A study of Homo sapiens with 19 samples.

Results

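The genes described here encode 3 receptors of the ERBB family of receptor tyrosine kinases (EGFR, ERBB3 and ERBB4) and 7 of the growth factors that bind them (NRG1, EGF, TGFA, AREG, EREG, HBEGF and BTC). They were chosen by name, and they are 10 of the 20163 protein-coding genes that were searched for binding of ERRα in breast cancer cell lines. In each of 8 lists of ERRα peaks, a peak was assigned to a gene when its centre lay inside the gene body or within 20 kb of an annotated transcription start. By this rule the 8 lists placed 228 peaks at 9 of the 10 genes. AREG had no peak in any list.

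ERRα is an orphan nuclear receptor that binds DNA at the ERRE, a short word built on the sequence AAGGTCA, and it is best known as a regulator of mitochondrial energy metabolism. The ERBB receptors sit in the plasma membrane and signal as pairs once a ligand is bound. EGF, TGFA and AREG are ligands of EGFR, whereas EREG, HBEGF and BTC bind both EGFR and ERBB4. NRG1, also called heregulin (HRG), binds ERBB3 and ERBB4. ERBB3 has little kinase activity of its own and signals through its partners, and ERBB2 has no known ligand. In the cells studied here EGF and HRG were also the stimuli that were added, so the ligand genes and the treatments share their names.

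SKBr3 and BT-474 are established human breast cancer lines with amplified ERBB2. Both were serum-starved for 24 h and then given vehicle (PBS), EGF or HRG at the labelled dose of 100 μM for 90 min. LRSKBr3 cells are SKBr3 cells resistant to lapatinib, an inhibitor of EGFR and ERBB2, and were kept in 2 μM of the drug, while pSKBr3 cells are their parental line, untreated and with no starvation in the labels. The 19 sequenced samples comprise 13 ERRα ChIP libraries and 6 input libraries. Each SKBr3, pSKBr3 and LRSKBr3 list pools 2 ChIP libraries against 1 input, and each BT-474 list comes from 1 ChIP library with the vehicle input shared among the 3.

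Each condition therefore has 1 list, and no list holds a spread between replicates. No test of a treatment or a line could be made, and every difference given below is a description of these lists. The lists held between 22539 peaks (pSKBr3) and 41271 peaks (BT-474 HRG). They carry no tag counts, so the depth behind each list is unknown, and a gene without a peak is one where no peak was called at this depth. Each peak has a score, the negative log10 of its P value multiplied by 10, with a lowest value of 50. Scores were compared only within a list, as a percentile in which 100 stands for the strongest peaks. Peaks say where ERRα was found and not whether the gene was transcribed, and the lists hold no markers that could check the lines against their names.

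The stretches of DNA below show the words found under 6 of the sites on which the results turn. Other widely called sites are not shown, among them EGFR-5 and EGF-3, whose shared segments held none of the words sought. A site is a set of peaks of different lists that overlap by at least 1 bp, numbered along the gene in the direction of transcription. All stretches are from the plus strand of GRCh37 (hg19), with 40 bases to each side of a word in capitals. In the first 2 the capitals mark the ERRE word TCAAGGTCA, read here on its other strand. EGFR-6 (chr7:55121933-55122021) was called in all 8 lists and BTC-1 (chr4:75731262-75731350) in 7.
EGFR-6: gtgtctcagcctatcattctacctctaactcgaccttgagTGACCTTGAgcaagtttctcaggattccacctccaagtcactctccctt
BTC-1: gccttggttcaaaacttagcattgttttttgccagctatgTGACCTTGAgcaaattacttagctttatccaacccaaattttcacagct

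The next stretches hold the shorter core word AAGGTCA, or its other strand, but no complete ERRE word. ERBB3-1 (chr12:56472348-56472434), the site of these genes with the highest mean percentile over its lists, held it upstream of the canonical start. TGFA-1 (chr2:70741572-70741658) was called on EGF and HRG in SKBr3 cells, on HRG in BT-474 cells and on vehicle in neither. The word shown there lies 439 bp from the nearest peak centre. A second AAGGTCA word lies 19 bp from the nearest centre, and its stretch, which overlaps an exon, is not printed.
ERBB3-1: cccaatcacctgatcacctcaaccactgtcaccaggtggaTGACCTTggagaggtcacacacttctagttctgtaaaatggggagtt
TGFA-1: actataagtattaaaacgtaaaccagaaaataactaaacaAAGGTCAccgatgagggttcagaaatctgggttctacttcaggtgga

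The last set holds the AP-1 word, TGACTCA or TGAGTCA, bound by the Jun and Fos family of factors that growth factors are known to activate. EREG-3 (chr4:75240430-75240548) carried a pair of these words and was called in all 8 lists. EGF-7 (chr4:110889098-110889184) was called in 6 lists, and BTC-1 (chr4:75730972-75731058) held this word beside its ERRE word.
EREG-3: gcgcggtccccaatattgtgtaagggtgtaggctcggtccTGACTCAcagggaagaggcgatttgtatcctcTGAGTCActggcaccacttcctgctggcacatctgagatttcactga
EGF-7: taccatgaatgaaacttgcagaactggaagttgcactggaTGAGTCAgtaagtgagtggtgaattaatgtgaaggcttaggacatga
BTC-1: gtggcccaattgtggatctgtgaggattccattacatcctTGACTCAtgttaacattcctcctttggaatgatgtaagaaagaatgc

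In SKBr3 cells, 7 of the 10 genes had a peak on vehicle, beside 57.2% of all protein-coding genes. On EGF 8 did, beside 59.5%, and on HRG 7 did, beside 69.3%. In BT-474 cells 8 genes had a peak on vehicle, beside 56.6% of all genes, 7 on EGF, beside 46.3%, and 7 on HRG, beside 58.6%. The pSKBr3 list had a peak at 5 of them, beside 59.9%, and the LRSKBr3 list at 9, beside 72.4%. In 7 lists the share of the 10 genes stood above that of all genes, by less than 1 gene on HRG in SKBr3 cells, whereas in pSKBr3 it stood below it.

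The genes were also counted by peaks within 20 kb of a start alone, which leaves out the interiors of the long genes. In SKBr3 cells 7 genes then had a peak on vehicle (54.1% of all genes), 7 on EGF (56.3%) and 6 on HRG (66.4%). In BT-474 cells 7 genes had one on vehicle (53.0%), 6 on EGF (42.3%) and 5 on HRG (55.3%). The pSKBr3 list had 5 (57.1%) and the LRSKBr3 list 7 (69.9%). Under this rule TGFA lost all its peaks, EGFR those on EGF and HRG in BT-474 cells and ERBB4 those in LRSKBr3.

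These genes differ widely in length, from 43.5 kb of searched sequence at AREG to 1236 kb at NRG1, so counts are also given per length. Over the 10 genes together there were 0.942 peaks per 100 kb on vehicle and on EGF in SKBr3 cells and 0.628 on HRG, where all protein-coding genes had 1.46, 1.51 and 2.06. In BT-474 cells the density was 0.973 on vehicle, 0.973 on EGF and 1.38 on HRG, against 1.38, 1.03 and 1.63 for all genes. It was 0.408 in pSKBr3 and 0.910 in LRSKBr3, against 1.34 and 2.24. This pooled density lay below that of all genes, but NRG1 and ERBB4 make up 2420 of the 3186 kb searched. The other 8 genes had 3.65 peaks per 100 kb on vehicle, 3.65 on EGF and 2.61 on HRG in SKBr3 cells, 1.57, 1.30 and 2.22 in BT-474 cells, 1.70 in pSKBr3 and 3.39 in LRSKBr3. Without the 2 long genes the density was thus above that of all genes in each of the 8 lists. The density of all genes still includes their long genes, however, so the 2 measures are unlike. EGFR held 16 of the 28 peaks of these 8 genes on vehicle and 12 of 28 on EGF in SKBr3 cells. Of the genes left out, ERBB4 had 1.52, 1.69 and 2.28 peaks per 100 kb in the BT-474 lists, above all genes, and NRG1 had at most 0.0809 in any list.

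**Figure D1:**
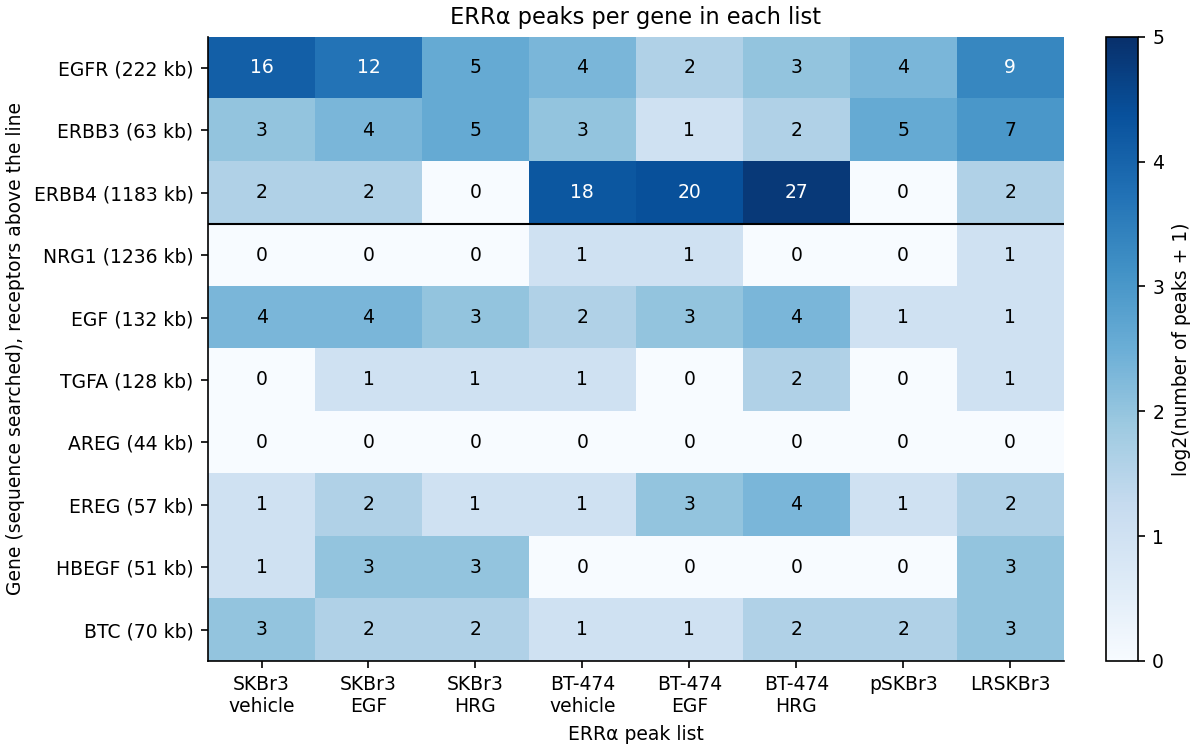
Number of ERRα peaks at each gene (rows, with the kb searched) in each peak list (columns). Shading gives log2(number + 1). EGFR had its highest count in the SKBr3 vehicle list (16), ERBB4 had 18 to 27 peaks in the BT-474 lists and at most 2 elsewhere, and AREG had none.

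EGFR (chr7:55086710-55279321, plus strand), the receptor for EGF, carried the most peaks of the 10 genes on vehicle and on EGF in SKBr3 cells, and as many as ERBB3 on HRG. There were 16 peaks on vehicle, 12 on EGF and 5 on HRG. In BT-474 cells EGFR had 4 on vehicle, 2 on EGF and 3 on HRG, and the pSKBr3 list had 4 and the LRSKBr3 list 9. Each of the 3 SKBr3 lists thus held more EGFR peaks than each of the 3 BT-474 lists. This order of the lists held for 13.2% of all genes, and among the 10 genes for EGFR and HBEGF. It was lost in lists of equal size, where EGFR had 2 peaks on HRG in SKBr3 cells and 3 on HRG in BT-474 cells, and where HBEGF had none on SKBr3 vehicle. HBEGF had none there with a score of at least 80 either. The peaks on vehicle covered 27.5% of the EGFR body in SKBr3 cells, and those on HRG covered 9.93%.

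The 8 lists placed the EGFR peaks in 17 sites, of which 13 lay in the long first intron. None had its centre within 1 kb of an EGFR start. The nearest, EGFR-1, lay 2.45 kb downstream of the canonical start and was called in LRSKBr3 only. No EGFR site was confined to the BT-474 lists, since 13 sites were called in SKBr3-derived lists only and the other 4 in both lines. Among the latter were EGFR-5 and EGFR-6, both in the first intron and both called in all 8 lists.

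EGFR-6 (chr7:55118813-55126721) was the leading EGFR site, about 35.9 kb from the canonical start. Its percentile was 99.9 on vehicle, 98.6 on EGF and 98.6 on HRG in SKBr3 cells, where only 35 of the 32183 vehicle peaks scored higher. It was 93.2 in pSKBr3 and 98.7 in LRSKBr3. In BT-474 cells the same site stood at percentile 54.6 on vehicle, 16.1 on EGF and 55.3 on HRG. The site was thus among the top peaks of the 5 SKBr3-derived lists and near or below the middle of the 3 BT-474 lists. The segment shared by its peaks was 1616 bp long and held 1 ERRE word, printed above, and 1 AP-1 word. In the narrower BT-474 peaks the ERRE word lay within 100 bp of the centre, at the closest 4.5 bp from it.

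EGFR-5 (chr7:55108972-55117244), which lies 26.5 kb from the start, ranked lower. Its percentile was 71.1 on vehicle, 71.2 on EGF and 68.0 on HRG in SKBr3 cells, 26.8 in pSKBr3 and 88.0 in LRSKBr3, and it was between 25.8 and 62.9 in the BT-474 lists. Its shared segment held none of the words sought.

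When the 3 SKBr3 lists were merged, EGFR had 16 sites. Of these 4 were called in all 3 lists, 6 on vehicle and 1 growth factor, 5 on vehicle only and 1 (EGFR-15) on growth factors only. Chromosome 7 as a whole behaved differently from other chromosomes in these lists. It held 10.9% of the SKBr3 vehicle peaks, 6.47% of those on EGF and 6.58% of those on HRG, and 36.2% of its SKBr3 sites were called on vehicle only, against 12.7% elsewhere. In the 5 Mb to each side of EGFR the vehicle list had 21.2 peaks per Mb, the EGF list 10.6 and the HRG list 11.1, where EGFR itself had 72.2, 54.2 and 22.6. The part of this in the EGFR counts was not tested. In LRSKBr3 cells EGFR had 40.6 peaks per Mb and its flanks 8.30, and in pSKBr3 cells 18.1 and 5.80.

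**Figure D2:**
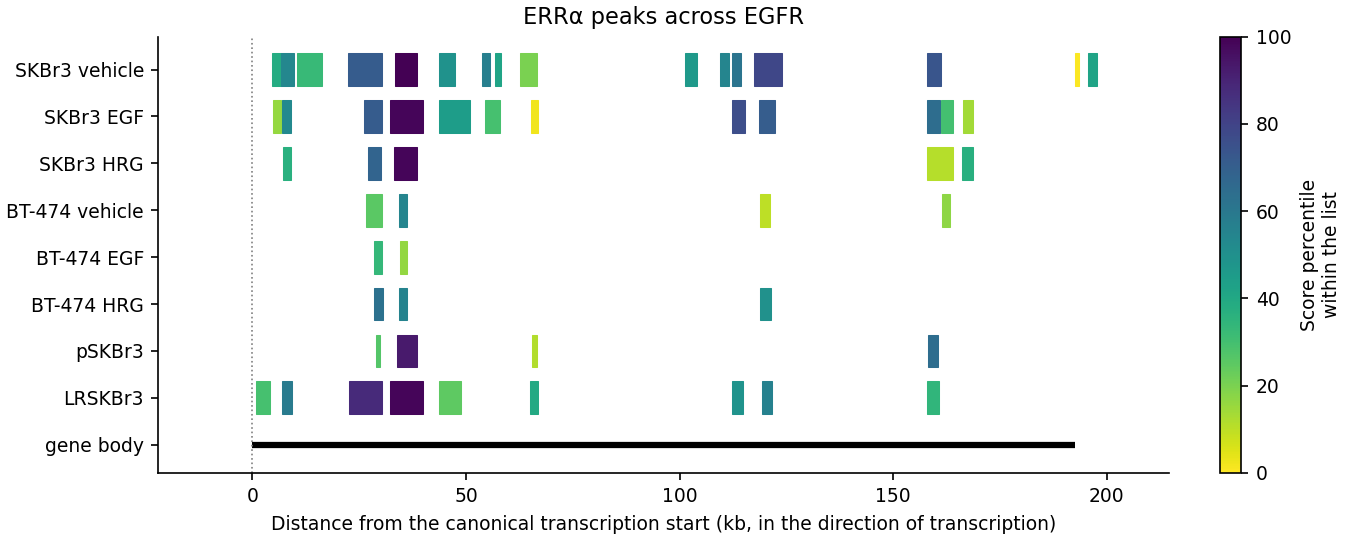
ERRα peaks across EGFR, drawn to scale by distance from the canonical start (horizontal axis, kb) in each list (rows), with the gene body as a black bar. Colour gives the score percentile within the list. EGFR-6, near 36 kb, is called in every list and is darkest in the 5 lists of SKBr3 origin.

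ERBB3 (chr12:56470583-56497289, plus strand), the partner of ERBB2 that HRG binds, had the site of the set with the highest mean percentile over its lists (98.1). It lay at its promoter. ERBB3-1 (chr12:56471392-56476793) was called in all 8 lists and its percentile was lowest in pSKBr3. It stood at 99.98 on vehicle in SKBr3 cells, where 6 peaks of the whole list scored higher, at 96.9 on EGF and at 98.6 on HRG. In BT-474 cells it stood at 98.3, 97.8 and 98.4 on vehicle, EGF and HRG, and it reached 96.0 in pSKBr3 and 98.7 in LRSKBr3. Of the 4 sites called in all lists, ERBB3-1 thus varied least in rank. Many peaks share a score of 3100, which ERBB3-1 had on HRG in SKBr3 cells, on vehicle and HRG in BT-474 cells and in LRSKBr3, and ranks among these peaks are not resolved.

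The ERBB3-1 peaks differed in extent more than in rank. In SKBr3 cells the vehicle peak spanned 3880 bp, the EGF peak 3778 bp and the HRG peak 5285 bp, and in BT-474 cells the vehicle peak spanned 4252 bp. On EGF and HRG in BT-474 cells they were 2174 and 2337 bp wide and ended before the canonical start. The segment common to all lists was 1922 bp long, and the AAGGTCA core word printed above, 1.56 kb upstream of the canonical start, was the only word found in it.

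The number of ERBB3 peaks was 3 on vehicle, 4 on EGF and 5 on HRG in SKBr3 cells, and 3, 1 and 2 in BT-474 cells. It was 5 in pSKBr3 and 7 in LRSKBr3. The further sites ranked below the promoter. ERBB3-2, in intron 3, was called on EGF (percentile 23.7) and HRG (59.9) and not on vehicle in SKBr3 cells, and in pSKBr3 (27.7) and LRSKBr3 (60.2), but in no BT-474 list. ERBB3-3 (chr12:56487452-56488807), in intron 14 and close to the start of a late transcript, was called on HRG in SKBr3 cells (43.6) and in LRSKBr3 (59.0). ERBB3-4 (chr12:56492467-56493846), in intron 23 and also close to such a start, was called in LRSKBr3 only (40.9). The remaining 3 sites lay past the end of ERBB3 and nearest to the starts of PA2G4, RPL41 and ZC3H10, and the rule reached them through short transcripts that start late in ERBB3. Counting from starts of protein-coding transcripts only, ERBB3 had 1 peak on vehicle, 3 on EGF and 4 on HRG in SKBr3 cells and 2, 1 and 1 in BT-474 cells.

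ERBB4 (chr2:212240442-213403565, minus strand), the receptor that binds the neuregulins as well as several EGF-like ligands, had nearly all of its peaks in BT-474 cells. It had 18 on vehicle, 20 on EGF and 27 on HRG. In SKBr3 cells there were 2 on vehicle, 2 on EGF and none on HRG, with none in pSKBr3 and 2 in LRSKBr3. The lowest BT-474 count was well above the highest count elsewhere. All 3 BT-474 lists held more peaks than all 3 SKBr3 lists at 6.91% of all genes, and among the 10 genes at ERBB4 only.

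ERBB4 is a long gene, and long genes offer more sequence. Among the 360 genes with at least 500 kb searched, the median was 7 peaks on vehicle, 7 on EGF and 10 on HRG in BT-474 cells, so ERBB4 stood above its length class there. In SKBr3 cells the same genes had a median of 5, 5 and 4, in pSKBr3 2 and in LRSKBr3 4, so it stood below it. Per length, ERBB4 had 15.2, 16.9 and 22.8 peaks per Mb in the BT-474 lists, close to the 16.1, 13.1 and 21.3 of the 5 Mb to each side. In SKBr3 cells it had 1.69, 1.69 and 0 peaks per Mb against 10.2, 11.9 and 9.60 in the flanks, and in LRSKBr3 1.69 against 14.0. ERBB4 and its flanks thus had like densities in BT-474 cells, whereas in these SKBr3 and LRSKBr3 lists the gene had far fewer peaks per length than its flanks.

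The ERBB4 peaks formed 32 sites, 29 of them called in BT-474 lists only. Of the 31 BT-474 sites, 14 were called in all 3 lists, 13 on growth factors only, 2 on vehicle and 1 growth factor, and 2 on vehicle only. None lay within 1 kb of an ERBB4 start. The most widely called, ERBB4-23 in intron 5 (chr2:212609163-212611122), was found in 6 lists. Its percentile was 41.2 on vehicle, 70.5 on EGF and 56.4 on HRG in BT-474 cells, 22.4 on vehicle and 21.0 on EGF in SKBr3 cells and 8.38 in LRSKBr3. The highest ERBB4 percentiles were reached by ERBB4-13 in intron 2, a site picked here for its values, with 90.4 on vehicle, 86.1 on EGF and 94.3 on HRG in BT-474 cells.

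**Figure D3:**
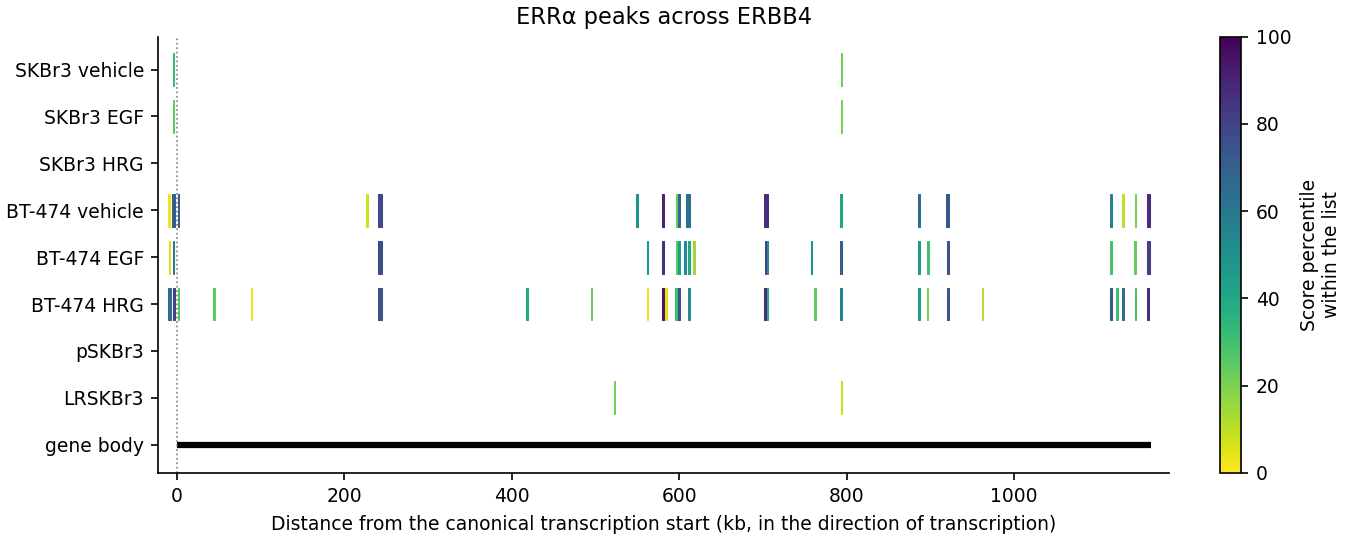
ERRα peaks across ERBB4 by distance from the canonical start (horizontal axis, kb) in each list (rows), coloured by score percentile, with the gene body as a black bar. Each peak has a thin outline so that it stays visible at this scale. The 3 BT-474 lists hold 18, 20 and 27 peaks, the other 5 at most 2.

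Among the ligands, NRG1 (chr8:31496738-32713184, plus strand) had almost no peaks despite its length. There was 1 on vehicle and 1 on EGF in BT-474 cells, 1 in LRSKBr3 and none in the other 5 lists. All 3 peaks made up a single site, NRG1-1 (chr8:32080167-32081942), at the closest 2484.5 bp from an NRG1 start and 325 kb upstream of the canonical one. Its percentile was low, with 15.8 and 39.6 in BT-474 cells and 23.7 in LRSKBr3. The pattern of lists with and without a peak seen at NRG1 was that of 17 genes with NRG1 itself, or 0.0843% of all, and of none of the other pathway genes. With a score of at least 80 this pattern was lost, since NRG1 then had no peak on BT-474 vehicle.

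EGF (chr4:110834039-110934922, plus strand), the gene of the ligand used as a stimulus, had peaks in all 8 lists. It had 4 on vehicle, 4 on EGF and 3 on HRG in SKBr3 cells, 2, 3 and 4 in BT-474 cells, and 1 each in pSKBr3 and LRSKBr3. No site of this gene was called in all lists. EGF-3 in intron 1 (chr4:110849092-110851106) was called in every list but BT-474 vehicle, and its percentile was highest on SKBr3 vehicle (69.7) and in LRSKBr3 (68.8), with 45.3 on EGF and 37.1 on HRG in SKBr3 cells and 49.2 in pSKBr3. It stood at 46.6 on EGF and 59.6 on HRG in BT-474 cells.

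EGF-7 in intron 10 (chr4:110887130-110890262), close to the start of a shorter transcript, was called in all SKBr3 and BT-474 lists of the growth factor experiment and in neither pSKBr3 nor LRSKBr3. In BT-474 cells its percentile was 74.7 on vehicle, 60.9 on EGF and 94.1 on HRG, and in SKBr3 cells 51.2, 66.8 and 22.6. Its highest rank was thus on HRG in BT-474 cells and its lowest on HRG in SKBr3 cells. The AP-1 word printed above lay in each of its 6 peaks. EGF-2 (chr4:110833441-110837412) lay at the EGF promoter and was weak. It was called on SKBr3 vehicle (34.6 for the peak at the start), SKBr3 EGF (0.700) and BT-474 vehicle (15.4).

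TGFA (chr2:70674416-70781325, minus strand), a ligand of EGFR, was the 1 gene of the 10 with a peak on EGF or HRG and none on vehicle in SKBr3 cells, a state shared by 17.8% of all genes. HBEGF joined it with a score of at least 80 or 100 and in lists of equal size, and without the gene body TGFA had no peak. It had no peak on vehicle and 1 each on EGF and HRG there. In BT-474 cells it had 1 on vehicle, none on EGF and 2 on HRG, and it had none in pSKBr3 and 1 in LRSKBr3. The SKBr3 peaks formed TGFA-1 in intron 1 (chr2:70741428-70743039), at percentile 52.1 on EGF and 76.0 on HRG. On HRG in BT-474 cells the same site was called at percentile 25.7, and neither vehicle list held it. The peaks of BT-474 vehicle and LRSKBr3 formed TGFA-2, at a mean percentile of 3.39. No TGFA peak lay within 20 kb of a start.

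EREG (chr4:75230862-75254466, plus strand), a ligand of EGFR and ERBB4, had 1 strong site in all lists. EREG-3 in intron 1 (chr4:75239466-75243017) had a percentile of 86.9 on vehicle, 95.3 on EGF and 95.9 on HRG in SKBr3 cells, and of 88.2, 93.9 and 98.4 in BT-474 cells. Its rank was therefore higher on either growth factor than on vehicle in both lines. In the untreated pSKBr3 cells it stood at 52.5, and in LRSKBr3 at 84.7. The 1432 bp shared by its peaks held 3 AP-1 words and 2 AAGGTCA core words but no complete ERRE word. Of the AP-1 words printed above, the first lay 6.5 bp and the second 0.5 bp from the nearest peak centre.

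EREG also gained weaker sites. It had 1 peak on vehicle, 2 on EGF and 1 on HRG in SKBr3 cells, 1, 3 and 4 in BT-474 cells, 1 in pSKBr3 and 2 in LRSKBr3. EREG-2 (chr4:75236381-75238763) was called on EGF in SKBr3 cells (11.7), on EGF (9.51) and HRG (45.4) in BT-474 cells and in LRSKBr3 (5.33), and on vehicle in neither line. EREG-2 and TGFA-1, 2 of the 80 sites, were called on a growth factor and not on vehicle in both lines, as were 2.24% of the sites at any gene. Neither was so with a score of at least 80 or in lists of equal size, since the EREG-2 peak on EGF in SKBr3 cells scored 61.6 and the TGFA-1 peak on HRG in BT-474 cells 75.1.

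HBEGF (chr5:139712428-139726188, minus strand), a ligand made as a membrane-bound precursor, had 1 peak on vehicle, 3 on EGF and 3 on HRG in SKBr3 cells. It had 3 in LRSKBr3, none in pSKBr3 and none in any BT-474 list. On vehicle its single peak was weak, at percentile 2.02. In the HBEGF-3 region (chr5:139716419-139722002) the peak on EGF stood at 86.8, that on HRG at 76.5 and that in LRSKBr3 at 25.8. The peaks on vehicle and on EGF did not overlap each other and were joined into 1 site through the 5584 bp wide peak on HRG. HBEGF-2 (chr5:139723036-139729861) covered the promoter on HRG (33.2) and lay upstream of it on EGF (12.3). Beyond the gene, HBEGF-4 was called on EGF (49.5) and HRG (77.2) and in LRSKBr3 (22.4). On HRG the peaks covered 63.5% of the HBEGF body, against 13.0% on vehicle and 19.6% on EGF.

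BTC (chr4:75669969-75719733, minus strand), betacellulin, had 3 peaks on vehicle, 2 on EGF and 2 on HRG in SKBr3 cells, 1, 1 and 2 in BT-474 cells, 2 in pSKBr3 and 3 in LRSKBr3. BTC-1 lay 11.3 kb upstream of its start (chr4:75730034-75732129) and was called in all lists but BT-474 vehicle. In SKBr3 cells its percentile was 81.3 on vehicle, 62.4 on EGF and 29.2 on HRG. In BT-474 cells it was 10.8 on EGF and 52.8 on HRG, in pSKBr3 55.5 and in LRSKBr3 93.6. BTC-1 thus ranked lower on either growth factor than on vehicle in SKBr3 cells, the reverse of EREG-3. Its ERRE word lay in all 7 peaks, 224.5 bp from the nearest centre, and its AP-1 word 14.5 bp from the nearest centre. At the BTC promoter, BTC-3 (chr4:75718407-75720519) was called on HRG in SKBr3 cells (46.4) and in LRSKBr3 (46.9). BTC-4 in intron 2 (chr4:75693639-75695496), close to the start of a shorter transcript, was called on vehicle (6.44) and EGF (32.1) in SKBr3 cells and on vehicle (19.5) and HRG (47.8) in BT-474 cells.

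AREG (chr4:75310853-75320722, plus strand), amphiregulin, lies between EREG and BTC on chromosome 4 and had no peak in any list, like 13.7% of all genes. The peak nearest to its start was 24.0 kb away on HRG in BT-474 cells and 70.4 kb away in pSKBr3. Of the 50-base words of the AREG body, 93.0% occur again on the same strand of chromosome 4, against 0.429% for EREG and 0.632% for BTC. A near copy, AREGB (chr4:75480629-75490486), lies further along, and 2 peaks over the 8 lists fell to it. Whether the repeated sequence bears on the missing peaks was not tested.

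**Figure D4:**
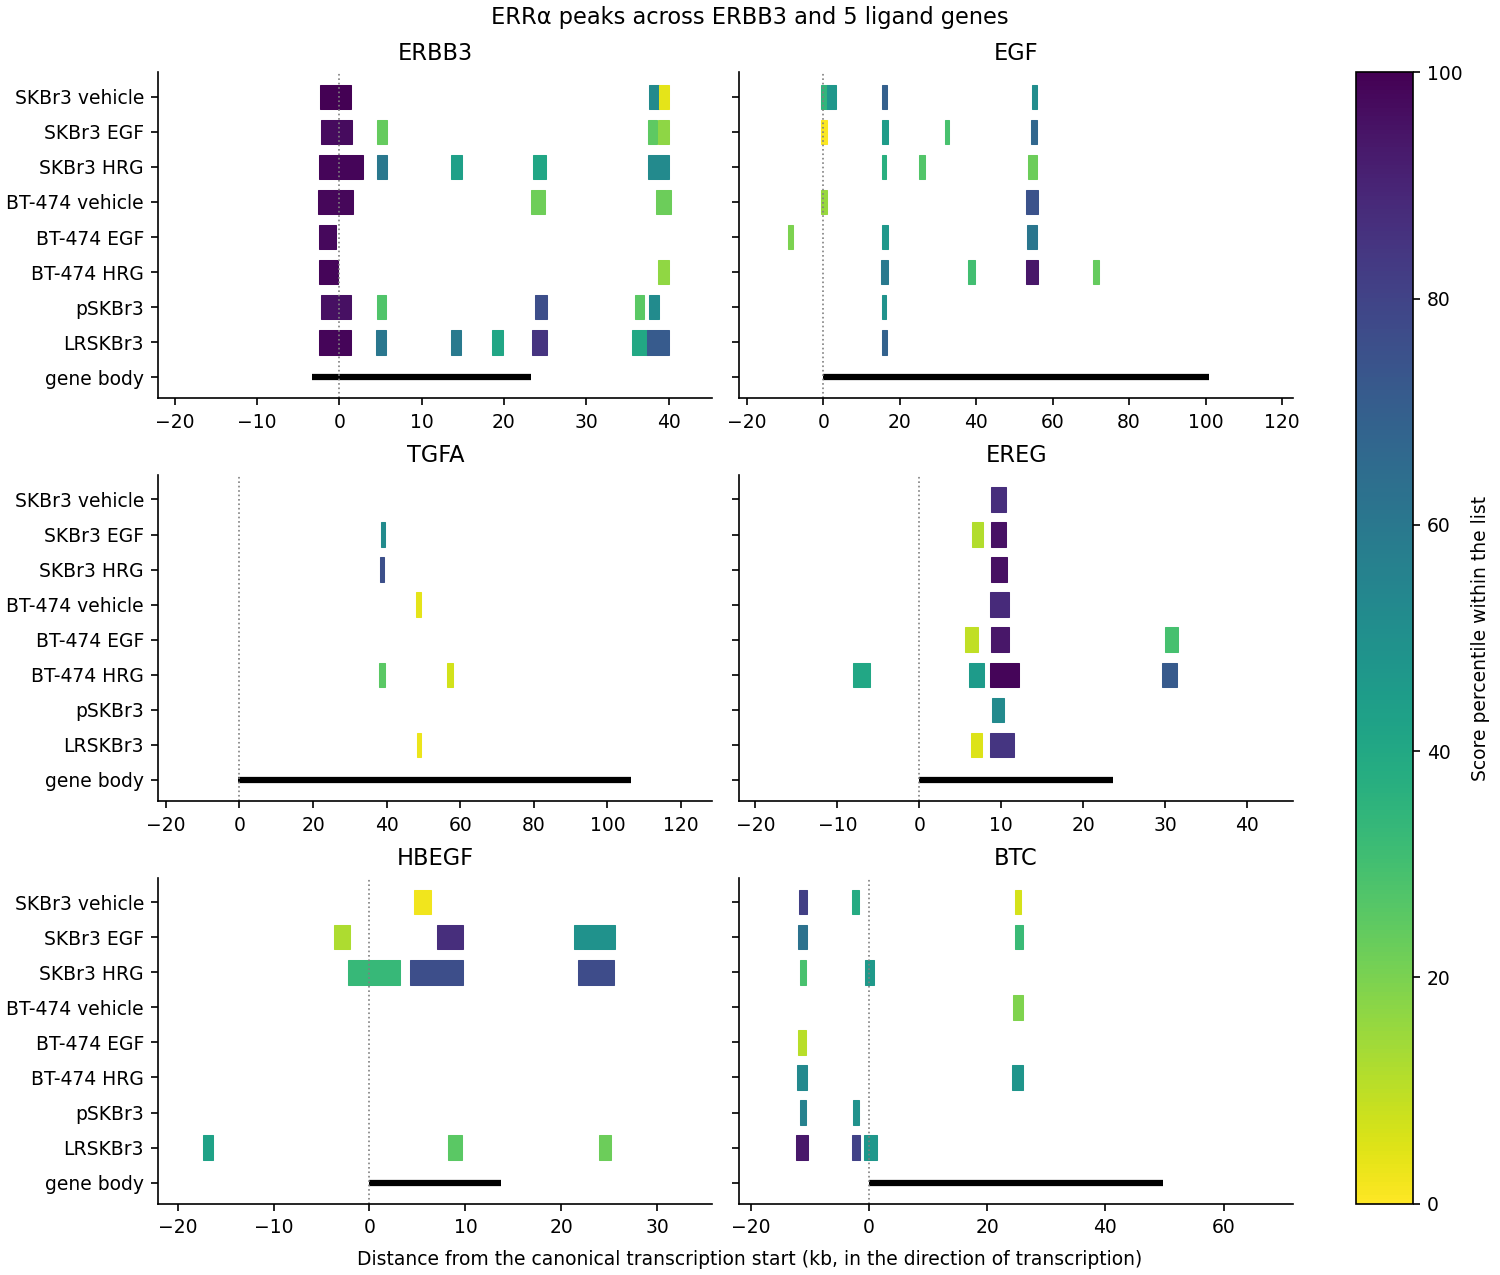
ERRα peaks across ERBB3, EGF, TGFA, EREG, HBEGF and BTC by distance from the canonical start (horizontal axes, kb) in each list (rows), coloured by score percentile, with the gene body as a black bar. The ERBB3 promoter and EREG intron 1 are occupied in all 8 lists, and HBEGF is empty in the 3 BT-474 lists and in pSKBr3.

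On EGF, 4 of the 10 genes had more peaks than on vehicle in SKBr3 cells (ERBB3, TGFA, EREG and HBEGF), as did 22.1% of all genes, and 2 had fewer (EGFR and BTC), as did 15.7%. On HRG, 3 had more (ERBB3, TGFA and HBEGF), beside 42.9% of all genes, and 4 had fewer (EGFR, ERBB4, EGF and BTC), beside 12.5%. The tally on EGF turned to 2 genes with more and 4 with fewer with a score of at least 100 and in lists of equal size, and to 2 and 2 with a score of at least 80. Over the 7 alternative settings of the counts, HBEGF kept more peaks and EGFR fewer on EGF in each, and on HRG ERBB3 and HBEGF kept more and EGFR and EGF fewer. TGFA kept more on both except without the gene body, where it had no peak. Merged over the 3 lists, the 10 genes had 39 SKBr3 sites, of which 11, or 28.2%, were growth factor-induced, against 43.7% of all SKBr3 sites. At EGFR 1 of 16 sites was induced, and at the other genes 10 of 23, or 43.5%. A further 7 sites (17.9%) were called on vehicle only, 5 of them at EGFR, against 15.1%. The count of 11 induced sites depends on merging by 1 bp. It was 17 when 50% of both peaks had to overlap, 22 with centres within 500 bp and 33 within 100 bp. The shares of all sites under these stricter rules were not computed.

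In BT-474 cells, 3 genes had more peaks on EGF (ERBB4, EGF and EREG), beside 7.47% of all genes, and 3 had fewer (EGFR, ERBB3 and TGFA), beside 30.2%. On HRG, 5 had more (ERBB4, EGF, TGFA, EREG and BTC), beside 24.5%, and 3 had fewer (EGFR, ERBB3 and NRG1), beside 14.1%. Of the 54 BT-474 sites, 23, or 42.6%, were growth factor-induced, against 37.5% of all BT-474 sites, and 13 of these lay in ERBB4. No gene of the 10 passed from no peak on vehicle to a peak on a growth factor, as 9.13% of all genes did. With a score of at least 80 and in lists of equal size, however, BTC (none on vehicle, 2 on HRG) and NRG1 (none on vehicle, 1 on EGF) did so, and BTC also with a score of at least 100. By the main rule none of the 10 lost its only peaks on both growth factors. This state was found at 4.68% of all genes in BT-474 cells and at 1.66% in SKBr3 cells. In lists of equal size, however, ERBB4 had 1 on vehicle and none on either growth factor in SKBr3 cells. Without the gene body, EGFR had 1 on vehicle and none on either growth factor in BT-474 cells. The direction against vehicle was opposite in the 2 lines at ERBB3 and TGFA on EGF, as at 10.4% of all genes, and at ERBB3, ERBB4, EGF and BTC on HRG, as at 13.0%. At ERBB3 the peaks missing in BT-474 cells were those of ERBB3-5 on both growth factors and ERBB3-7 on EGF, both sites past its end. EGFR had fewer peaks on both growth factors than on vehicle in both lines, as did 0.982% of all genes. In BT-474 cells, where the counts were low, this direction was not kept. With a score of at least 80 EGFR had 2 peaks on vehicle and 3 on HRG there, at least 100 left 1 and 3, and in lists of equal size it had 1 on vehicle, 2 on EGF and 3 on HRG. The gain of ERBB4 in BT-474 cells also turned, to 13 on vehicle and 12 on EGF with a score of at least 100, and to 13 on vehicle and 12 on HRG in lists of equal size. On EGF it was absent with a score of at least 80 (14 and 14) and without the gene body (6 and 6), and that of EREG was absent with a score of at least 80 or 100 (1 and 1). Over the 7 settings only the EGF gene kept more peaks on EGF in BT-474 cells, and on HRG only EGF and EREG did.

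In LRSKBr3 cells, 8 of the 10 genes had more peaks than in pSKBr3 cells, EGF and AREG being the exceptions, and none had fewer, beside 46.7% and 5.44% of all genes. ERBB4, NRG1, TGFA and HBEGF had a peak in LRSKBr3 and none in pSKBr3, as 14.4% of all genes did, and none had the reverse, found at 1.93%. Of 29 sites over both lists, 16 (55.2%) were specific to LRSKBr3, 13 (44.8%) were common and none was specific to pSKBr3, against 48.7%, 44.6% and 6.72% of all sites. The LRSKBr3 list was also the longer, with 39777 peaks against 22539. When every list was reduced to its 22539 best-scored peaks, LRSKBr3 had peaks at 5 of the genes, as pSKBr3 did, and its specific sites numbered 5. Only EGFR (5 against 4) and BTC (3 against 2) then had more peaks in LRSKBr3 than in pSKBr3. The LRSKBr3 peaks at ERBB4, NRG1, TGFA and HBEGF were not among those left. The drug and the resistant line differ together in this comparison and cannot be told apart.

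**Figure D5:**
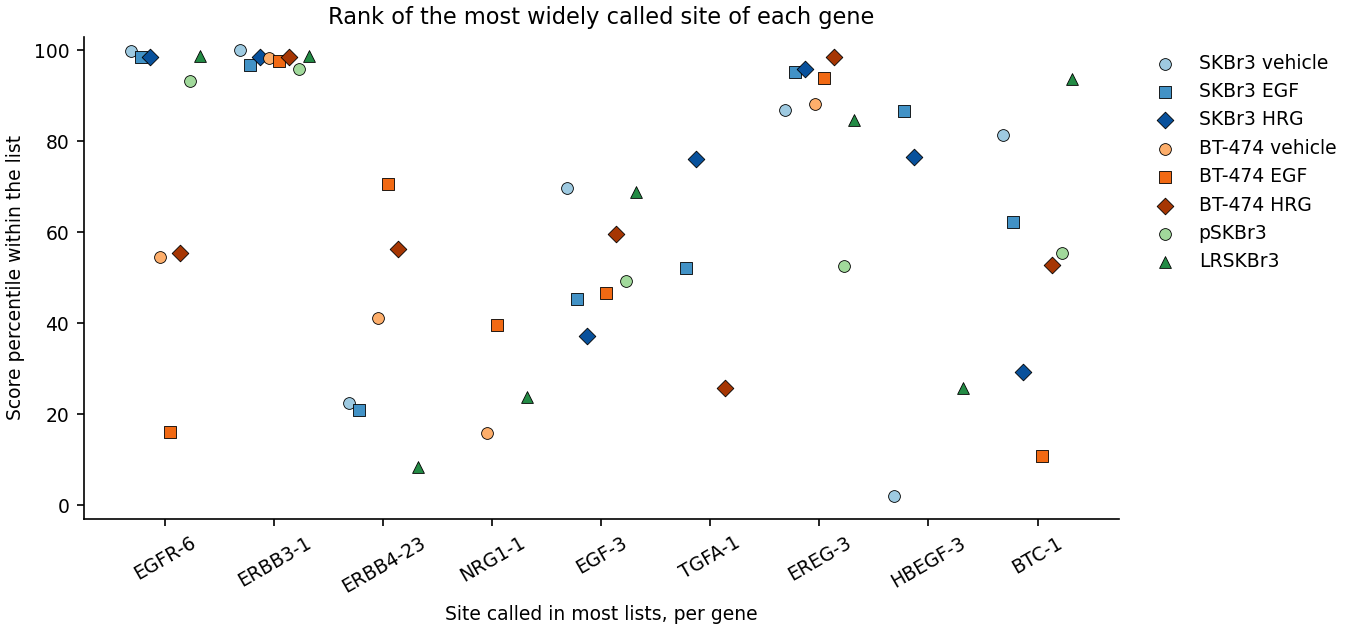
Score percentile within each list (vertical axis) of the site called in most lists for each gene with a peak (horizontal axis). Points are lists, and a missing point means no peak. ERBB3-1 lies near the top in all 8 lists, whereas EGFR-6 is high in the 5 SKBr3-derived lists and lower in the 3 BT-474 lists.

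Across the 80 sites of these genes, 29 (36.3%) were called in 1 list, against 38.4% of the sites at any protein-coding gene. A further 4 were called in all 8 (EGFR-5, EGFR-6, ERBB3-1 and EREG-3), as were 8.05% of the sites at any gene. The 4 fell to 2 with a score of at least 80 or 100 and without the gene body. With centres within 500 bp they also fell to 2, and within 100 bp to 0. There were 35 sites (43.8%) in BT-474 lists only, 29 of them at ERBB4, against 24.4% of the sites at any gene. The SKBr3-derived lists alone held 26 (32.5%), against 46.5%, and 19 (23.8%) were in both, against 29.1%. The patterns of lists with a peak differed between the genes. EGFR, ERBB3, EGF, EREG and BTC had a peak in every list, as did 30.3% of all genes. With a score of at least 80 this no longer held for BTC, with at least 100 for BTC and EGFR, and in lists of equal size for BTC and EGF. It was also lost by BTC within 10 kb of a start or in the body, and by EGFR without the gene body. The pattern of ERBB4 was found at 0.412% of genes, that of TGFA at 0.198% and that of HBEGF at 0.734%, the gene itself included, and at none of the other pathway genes. Each of these patterns changed with a score of at least 80. ERBB4 then had no peak in LRSKBr3, TGFA none in BT-474 cells or LRSKBr3, and HBEGF none on SKBr3 vehicle.

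The ERRE word lay within 100 bp of the centre of 5 of the 228 peaks at these genes, or 2.19%, against 6.75% of all peaks in windows of the same length. It was EGFR that held 4 of the 5, and ERBB4 the other. Anywhere in the peak the word was found in 37 peaks, or 16.2%, against 15.3% of all peaks, with 19 at EGFR, 10 at ERBB4, 7 at BTC and 1 at HBEGF. Peaks of different lists at a site share DNA, so the same word is counted in each of them. The 7 BTC peaks all hold the word of BTC-1, and 8 of the 19 EGFR peaks hold that of EGFR-6. These shares therefore count peaks and not separate words in the genome. Over all lists the peaks at these genes had a median width of 1936 bp, against 1646 bp for all peaks. In SKBr3 vehicle the medians were 2036 and 1405 bp, in BT-474 HRG 2033.5 and 1957 bp and in pSKBr3 1180 and 1188 bp. No ERRE word was found in any peak of ERBB3, NRG1, EGF, TGFA or EREG.

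The AP-1 word lay within 100 bp of the centre of 24 peaks, or 10.5%, against 7.59% of all peaks, and anywhere in 113 peaks, or 49.6%, against 35.2%. Here EGFR held 31 and ERBB4 28. At EREG 9 of 15 peaks contained it, at BTC 11 of 16 and at EGF 11 of 22, while at TGFA it was in 1 of 6. Here too the same word is counted in each list, and 8 of the 9 EREG peaks are those of EREG-3. The oestrogen response element (ERE), the palindromic word of the oestrogen receptor, was in 4 peaks, all at EGFR-3, or 1.75% against 0.492% of all peaks. Words were sought on both strands, and the ERRE word includes the AAGGTCA core. A word is a match of letters and not a measured contact, and a site without one may hold other forms of it.

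Other genes of the pathway, 18 in all, were counted by the same rule. Of the remaining receptor and ligands, ERBB2 had no peak in any list, and NRG2 had a peak in all 8. As at EGFR, each SKBr3 list held more NRG2 peaks than each BT-474 list, with 10 peaks on vehicle, 7 on EGF and 11 on HRG in SKBr3 cells, 2, 1 and 3 in BT-474 cells, 6 in pSKBr3 and 13 in LRSKBr3. At NRG3, a long gene, the order was that of ERBB4, with 17, 13 and 18 peaks in BT-474 cells, 0, 2 and 0 in SKBr3 cells, 1 in pSKBr3 and 3 in LRSKBr3. Among the 18 genes CBLB also had this order, with 4, 4 and 9 peaks in BT-474 cells and 1, 2 and 1 in SKBr3 cells. EPGN and NRG4 had at most 3 peaks in any list.

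The sheddases ADAM10 and ADAM17, which release EGF-like ligands from the membrane, had 1 to 3 peaks in every list. RHBDF2, which assists ADAM17, had 5 peaks on HRG in SKBr3 cells, 3 in LRSKBr3, 1 in pSKBr3 and none elsewhere. Of the adaptors, GRB2 had none on vehicle, 1 on EGF and 4 on HRG in SKBr3 cells and 2, 1 and 3 in BT-474 cells, and SHC1 had 1, 1 and 3 and then 2, 0 and 1. SOS1 had 2 peaks in each SKBr3 list and 2, 1 and 3 in BT-474 cells, and GAB1 had 3, 2 and 3 and then 4, 3 and 6. In pSKBr3 and LRSKBr3 cells SHC1 had 4 and 3, SOS1 2 and 6, GAB1 none and 4, and GRB2 none in either. Of the inhibitors of receptor signalling, ERRFI1 had 4, 2 and 4 peaks in SKBr3 cells, 3, 1 and 2 in BT-474 cells, none in pSKBr3 and 2 in LRSKBr3, and LRIG1 had 2 to 5 in every list. In the SKBr3 experiment 5 of the 18 had more peaks on EGF (22.1% of all genes) and 4 fewer (15.7%), and 10 had more on HRG (42.9%) and 1 fewer (12.5%). In BT-474 cells 2 had more on EGF (7.47% of all genes) and 9 fewer (30.2%), and 11 had more on HRG (24.5%) and 3 fewer (14.1%). In LRSKBr3 cells 12 had more peaks than in pSKBr3 cells (46.7% of all genes), and SHC1 alone had fewer (5.44%).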

How the data were processed

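ERRα ChIP-seq of SKBr3, BT-474, pSKBr3 and LRSKBr3 cells was used as 8 deposited peak lists. The authors aligned reads to hg19 (GRCh37) with BWA 0.5.9, called peaks with MACS against input at a P value cutoff of 1e-05, and deposited 1 list per condition, with the libraries of a condition pooled where there were 2. The score in the deposited lists is the authors' negative log10 of P multiplied by 10. Scores and the number of peaks grow with sequencing depth, which the lists do not give, and scores were therefore used as percentiles within a list.

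Genes and transcription starts were those of GENCODE v44 lifted to GRCh37. From each list the peak positions and the score were used. Peaks overlapping by 1 bp were merged into sites, and words were sought on both strands within 100 bp of the peak centre. Leading sites were those called in most lists (ties by mean percentile). Sites within 1 kb of a start of the same gene, and sites gained on growth factors in both lines, were also described. Score minimums, list sizes, distances, start sets, site overlaps and word windows were varied. The members, gene lists and words were chosen with earlier results of these data known. Assignment, merging and word search were tested on simulated data. Python 3.11.15, pandas 2.3.3, numpy 2.4.6, pysam 0.24.0, samtools 1.23.1 and matplotlib 3.10.9 were used.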

Additional observations from a re-analysis of the deposited data

Results flagged for a closer look

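Some genes of the set gained peaks in one line and lost peaks in the other under the same growth factor. Each value is a difference between 2 lists, and the difference between the lines was not tested. On EGF, 2 of the 10 genes moved in opposite directions, beside 10.4% of all protein-coding genes. ERBB3 went from 3 to 4 peaks in SKBr3 cells, a change of 1, and from 3 to 1 in BT-474 cells, a change of -2. The BT-474 peaks missing on EGF were those of ERBB3-5 and ERBB3-7, past the end of ERBB3 and nearest to the starts of PA2G4 and ZC3H10. The promoter site ERBB3-1 was called in each BT-474 list. TGFA changed by 1 in SKBr3 cells, from 0 to 1, and by -1 in BT-474 cells, from 1 to 0.

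On HRG, 4 genes did so, beside 13.0% of all genes. ERBB3 changed by 2 in SKBr3 cells and by -1 in BT-474 cells, where the missing peak was that of ERBB3-5. ERBB4 changed by -2 in SKBr3 cells and by 9 in BT-474 cells. EGF changed by -1 in SKBr3 cells and by 2 in BT-474 cells. BTC changed by -1 in SKBr3 cells and by 1 in BT-474 cells.

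Most of these moves rest on 1 or 2 peaks. On EGF, ERBB3 had 2 peaks on vehicle and 2 on EGF in SKBr3 cells with a score of at least 80, and 2 and 1 with a score of at least 100 or in lists of equal size. TGFA had 0 and 0 in BT-474 cells under these 3 settings and without the gene body. On HRG, ERBB3 had 1 and 1 in BT-474 cells with a score of at least 100 and in lists of equal size. ERBB4 had 0 and 0 in SKBr3 cells with a score of at least 100, and 13 on vehicle and 12 on HRG in BT-474 cells in lists of equal size. BTC had 2 and 2 in SKBr3 cells with a score of at least 80, and 1 and 1 in BT-474 cells within 10 kb of a start or in the body. Only EGF kept its opposite directions on HRG in each of the 7 settings of the gene counts.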

How the results depend on the processing

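No paired analysis was possible because each list stands for a whole condition (pooled libraries, or 1 library in BT-474 cells) and has no column per replicate, and for the same reason no replicate could be left out. Of 158 alternative values, 120 stayed within 1.5 times the reported number. With a score of at least 80, BT-474 vehicle had 20 peaks at 5 genes, BT-474 EGF 20 peaks, and 2 sites were in all lists. At 100, peaks numbered 15 on SKBr3 EGF, 17 at 5 genes on BT-474 vehicle, 16 at 4 genes on BT-474 EGF and 26 on BT-474 HRG, BT-474 had 14 growth factor-induced sites, and 2 sites were in all lists. Without the gene body, BT-474 lists had 15, 15 and 21 peaks and 11 induced sites, LRSKBr3 had 10 specific sites, and 2 sites were in all lists. With lists of equal size, peaks numbered 16 on SKBr3 EGF, 12 on SKBr3 HRG, 17 at 5 genes on BT-474 vehicle, 23 on BT-474 HRG and 15 at 5 genes in LRSKBr3, with 5 LRSKBr3-specific sites. SKBr3 had 17 induced sites when 50% of both peaks had to overlap, 22 with centres within 500 bp and 33 within 100 bp. Within 100 bp BT-474 had 47, and the sites in all lists fell to 2 (500 bp) and 0 (100 bp), as a stricter match splits sites. The ERRE word was in 13 peaks within 250 bp, 37 anywhere and 21 as AAGGTCA, and the AP-1 word in 51, 113 and, with 1 mismatch, 125. The 10 kb, body overlap and protein-coding start settings moved none of these numbers by over 1.5 times. Depth is unknown, so a missing peak is not evidence of missing binding.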
